A study of Homo sapiens with 24 samples.

Results

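PPARG is a nuclear receptor that binds DNA as a dimer with an RXR receptor and is switched on by fatty acids and their derivatives. Of the 6 genes described here, it is the regulator and the others handle lipid: FABP4 and FABP5 carry fatty acids through the cytosol, PLIN2 coats lipid droplets, ANGPTL4 is a secreted inhibitor of lipoprotein lipase, and CPT1A admits long-chain fatty acids to mitochondria for oxidation. FABP4, PLIN2 and ANGPTL4 are textbook PPAR targets, and in the bladder PPARG is known for driving the luminal urothelial programme. The genes were chosen by name, and all 6 of 6 were measured among 19775 genes. Each was read on its probe set with the highest mean over all arrays.

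The cells were RT112, an established line from a human bladder carcinoma. Per the labels, 3 derived lines called 2-4, 4-1 and 6-16 held a hairpin directed at FGFR3, a growth factor receptor, that doxycycline switches on. A control line held a hairpin directed at EGFP, which human cells lack. Each line was given as 3 arrays with doxycycline at 1 µg/ml and 3 arrays without it, both over 48 h in medium with 1% serum, so there were 8 labelled groups and 24 arrays. All groups share the RT112 background and an integrated hairpin vector, and nothing in the labels says whether a line is 1 clone or whether the 3 arrays of a group came from separate cultures. P-values therefore measure only the spread between these arrays, and the labels do not tell technical from biological spread. That spread was wide for some genes, as for FABP4 at 9.63, 13.11 and 9.50 on the EGFP arrays without doxycycline.

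The labels were not borne out by the targeted gene or by the arrays themselves. With doxycycline, the log2 change of FGFR3 on its brighter probe set was 0.15 in line 2-4, -0.24 in line 4-1, 0.42 in line 6-16 and 0.16 in the EGFP line. On its other probe set the changes were 0.17, 0.29, -0.83 and 0.44 in the same order, and none passed the test. For 0 of the 24 arrays was the most similar other array, by correlation over all genes, one of the same labelled group. For all 24 it lay on the same side of a gap in the TACC3 level. TACC3 works at the mitotic spindle, and RT112 cells are known to carry an FGFR3-TACC3 fusion. All group names below are the labels' names, and every direction between them rests on the labels. TACC3 was at a log2 level of 10.49 to 11.43 on 9 arrays, here called the low TACC3 arrays, and at 11.82 to 12.62 on the other 15. That split is a measured level and not a treatment, so values on its 2 sides are described without a test. The other FGFR3 probe set was wholly lower on the 9 arrays (8.71 to 9.88, against 10.34 to 11.20), as were 3.09% of all genes. The brighter FGFR3 probe set overlapped (11.13 to 12.20, against 11.36 to 12.34). The part of the fusion in these levels was not tested. The epithelial markers EPCAM, CDH1, KRT7, KRT8, KRT18 and KRT19 averaged 12.88 to 13.21 on every array.

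Promoters of PPARG, the regulator, and of CPT1A, the enzyme at the far end of the pathway, are shown as windows with and without the motif that such receptors bind. They are RefSeq windows of 300 bases on GRCh38.p14 that span a transcript start, 5′ to 3′. Capitals mark AGGTCA, a core motif that nuclear receptors bind, searched on both strands.
PPARG, chr3:12287118-12287417, plus strand: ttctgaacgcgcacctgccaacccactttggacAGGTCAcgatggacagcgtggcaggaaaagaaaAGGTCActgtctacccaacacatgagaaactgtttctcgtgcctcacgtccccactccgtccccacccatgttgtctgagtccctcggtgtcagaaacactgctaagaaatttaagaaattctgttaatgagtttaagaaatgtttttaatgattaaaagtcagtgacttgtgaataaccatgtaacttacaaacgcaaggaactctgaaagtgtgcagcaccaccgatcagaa
PPARG, chr3:12288810-12289109, plus strand: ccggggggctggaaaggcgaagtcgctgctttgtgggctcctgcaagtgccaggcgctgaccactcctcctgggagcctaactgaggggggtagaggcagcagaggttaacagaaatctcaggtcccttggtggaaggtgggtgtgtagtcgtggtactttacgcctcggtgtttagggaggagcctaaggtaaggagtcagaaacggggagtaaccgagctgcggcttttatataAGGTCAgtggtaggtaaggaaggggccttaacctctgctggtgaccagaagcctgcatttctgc
CPT1A, chr11:68844228-68844527, minus strand: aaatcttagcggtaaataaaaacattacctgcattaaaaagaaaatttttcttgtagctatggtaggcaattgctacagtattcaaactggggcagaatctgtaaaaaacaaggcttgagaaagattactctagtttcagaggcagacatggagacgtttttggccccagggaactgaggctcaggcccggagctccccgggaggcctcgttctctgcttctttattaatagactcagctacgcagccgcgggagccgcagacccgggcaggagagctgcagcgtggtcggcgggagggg
The first window holds 2 such motifs, 217 and 184 bases upstream of the start, and the second holds 1, 14 bases upstream, which a further, overlapping PPARG window shares. The other 3 PPARG windows and the windows of CPT1A, PLIN2 and ANGPTL4 hold 0, so 3 of 6 PPARG windows and 3 of 9 in all hold the motif, and 2 of those 3 overlap. Of 35116 such windows of all genes, 13.8% hold the motif. The full PPAR-RXR element, DR1, which is that motif repeated with 1 base between, was searched on both strands and is in 0 of the 9 windows of PPARG, PLIN2, ANGPTL4 and CPT1A and in 0.0228% of all windows. These matches describe letters only. No window of FABP4 or FABP5 was used here.

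FABP4, the fatty acid chaperone, had among the widest ranges of any gene on these arrays. It spanned 9.50 to 13.30 on the log2 scale, a range wider than that of 99.9% of genes. Its levels fell into 2 sets, 6 arrays at 9.50 to 9.75 and 18 at 11.77 to 13.30. In the 2-4 line FABP4 was at 12.63, 9.69 and 11.96 with doxycycline, against 12.76, 12.00 and 12.61 without. In the 4-1 line it was at 9.75, 13.27 and 12.75 with doxycycline, against 11.98, 9.69 and 12.00 without. One array of each of these sets but the 2-4 arrays without doxycycline was low. In the 6-16 line FABP4 was at 12.69, 12.13 and 11.77 with doxycycline, against 12.70, 13.30 and 12.57 without. In the EGFP line it was at 12.66, 12.76 and 9.63 with doxycycline, against 9.63, 13.11 and 9.50 without. Arrays with and without doxycycline overlapped in every line, and the 6 low arrays divided into 3 with and 3 without doxycycline, and into 3 of the FGFR3 lines and 3 of the EGFP line.

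Averaged by label, FABP4 passed the test in none of the 4 lines. Its mean was 11.42 ± 1.54 with and 12.46 ± 0.40 without doxycycline in the 2-4 line, 11.92 ± 1.90 and 11.22 ± 1.33 in the 4-1 line, 12.20 ± 0.47 and 12.85 ± 0.39 in the 6-16 line, and 11.68 ± 1.78 and 10.75 ± 2.05 in the EGFP line (SD, n = 3 each). The log2 changes were -1.03, 0.71, -0.66 and 0.94 in that order of lines, with a standard error (SE) of 1.04 each from a limma model over all genes. Their 95% intervals were -3.22 to 1.15, -1.48 to 2.89, -2.84 to 1.53 and -1.25 to 3.12, and each included 0. Leaving out 1 array moved the change in the 4-1 line to -0.06 (without replicate 2 of the arrays without doxycycline), in the 2-4 line to -0.16 (without replicate 2 of those with it) and in the EGFP line to 2.12 (without replicate 2 of those without it). The fainter FABP4 probe set had the same 6 arrays lowest, at 6.03 to 6.62, against 6.80 to 8.46 on the other 18.

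PPARG varied far less than FABP4, from 10.39 to 11.07, and its lowest 6 arrays were the 6 low FABP4 arrays. In the 2-4 line it was at 10.86, 10.54 and 10.92 with doxycycline, against 10.88, 11.02 and 10.86 without. In the 4-1 line it was at 10.56, 11.01 and 10.90 with doxycycline, against 10.97, 10.41 and 10.86 without. These sets overlapped, and each value under 10.6 was that of a low FABP4 array. In the 6-16 line PPARG was at 10.91, 11.05 and 10.69 with doxycycline, against 11.07, 10.98 and 10.96 without. In the EGFP line it was at 10.88, 10.89 and 10.39 with doxycycline, against 10.54, 10.92 and 10.43 without. Its change was -0.15 in line 2-4, 0.07 in line 4-1, -0.12 in line 6-16 and 0.09 in the EGFP line (SE 0.17 each), with 95% bounds no lower than -0.50 and no higher than 0.44.

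On the 6 low FABP4 arrays, PPARG was at 10.39 to 10.56 with a median of 10.48, against 10.69 to 11.07 with a median of 10.91 on the other 18. The sets did not overlap for PPARG. The arrays were set apart by FABP4, so FABP4 itself is no result, and 3.45% of all genes were likewise lower on all 6 arrays than on any of the 18. FABP5 (4.85 to 8.31, against 4.91 to 9.17), PLIN2, ANGPTL4 and CPT1A (9.26 to 9.62, against 9.31 to 10.01) overlapped between the sets. Within the 18 arrays PPARG and FABP4 had a Pearson correlation of 0.25 (Spearman 0.20), and within the 6 it was 0.50 (0.60). These describe arrays that share a normalization and come in similar sets. The keratins KRT7, KRT8 and KRT18 ran from 12.65 to 12.83, from 11.87 to 12.08 and from 13.47 to 13.65 on the 6 arrays, against 12.82 to 13.37, 12.24 to 12.78 and 13.61 to 14.08 on the 18. Only KRT8 of the 6 epithelial markers did not overlap, and the part of these markers in the levels of PPARG and FABP4 was not tested.

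**Figure D1:**
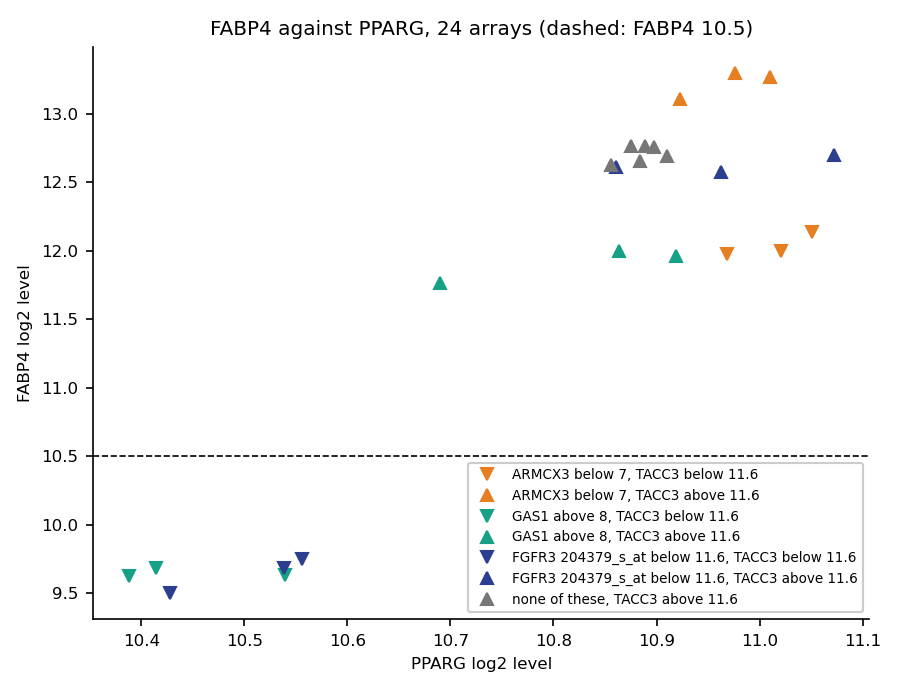
FABP4 log2 level against PPARG log2 level, 1 symbol per array, coloured by levels of ARMCX3, GAS1 and an FGFR3 probe set and pointing down on the 9 low TACC3 arrays. The 6 arrays under the dashed line have PPARG at 10.39 to 10.56, and the other 18 have it at 10.69 or higher.

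FABP4 also marks fat cells, endothelium and macrophages, so markers of those cells were read on the same arrays. The fat cell markers ADIPOQ, LEP, PLIN1, CIDEC and LIPE averaged 6.57 to 6.73 on the 6 arrays, against 6.40 to 6.76 on the 18. The endothelial markers PECAM1, VWF, CDH5, KDR and TEK averaged 7.54 to 7.69, against 7.54 to 7.80. The 6 measured leukocyte and macrophage markers averaged 5.75 to 5.95, against 5.80 to 6.01. Of the fibroblast markers, whose mean was 8.59 to 8.73 against 8.51 to 8.67, LUM was high on all arrays, at 12.84 or above. Each of these list means overlapped between the sets, and so did each of their measured genes. In bulk RNA a change in the number of expressing cells and a change in RNA per cell cannot be told apart.

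FABP5, the skin-type chaperone, varied as widely as FABP4 but on other arrays. It spanned 4.85 to 9.17, a range wider than that of 99.9% of genes, on a probe set whose suffix (_s_at) marks probes that can match more than 1 transcript. The chosen probe sets of PPARG and ANGPTL4 carry the same suffix. PPARG and FABP5 had no further probe set with 1 gene symbol to set beside the chosen one. In the 2-4 line FABP5 was at 6.98, 5.07 and 8.998 with doxycycline, against 6.76, 5.09 and 5.26 without. In the 4-1 line it was at 5.19, 4.97 and 6.86 with doxycycline, against 4.99, 8.26 and 9.17 without. Both pairs of sets overlapped, and FABP5 differed widely among arrays of 1 labelled group. In the 6-16 line FABP5 was at 6.82, 5.38 and 8.87 with doxycycline, against 5.50, 5.19 and 5.12 without. In the EGFP line it was at 7.06, 6.60 and 8.31 with doxycycline, against 8.29, 4.91 and 4.85 without. The FABP5 difference was 1.31 in line 2-4, -1.80 in line 4-1, 1.76 in line 6-16 and 1.31 in the EGFP line (SE 1.13 each). The limma adjusted p values were 0.999, 1.00, 0.735 and 0.975. Single arrays moved these differences widely. In line 2-4 leaving out an array gave 0.32 (without replicate 3 with doxycycline) to 2.29 (without replicate 2 with it). The range was -3.04 to -0.95 (without replicates 1 and 3 without doxycycline) in line 4-1. It ran from 0.83 to 2.58 (without replicates 3 and 2 with doxycycline) in line 6-16 and from 0.73 to 2.44 (without replicates 3 and 1 without doxycycline) in the EGFP line.

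FABP5 was highest on the 6 arrays set apart by GAS1, a growth arrest gene. On the 6 arrays with GAS1 above 8, FABP5 was at 8.26 to 9.17. On the other 18 arrays it was at 4.85 to 7.06, with 6.60 to 7.06 on 6 of them and 4.85 to 5.50 on 12. The levels on those 12 lay below the array medians of 6.98 to 7.08 and were not set against background. The share of all genes that likewise set the 6 arrays with GAS1 above 8 apart was not counted, so FABP5 is not thereby set apart from other genes. Over all 24 arrays FABP5 and GAS1 had a Pearson correlation of 0.88 (Spearman 0.74), and none was computed within the arrays on either side of GAS1 8. The 6 arrays with FABP5 at 6.60 to 7.06 had GAS1 at 6.25 to 6.45, and 3 arrays with FABP5 at 5.12 to 5.50 had it at 6.44 to 6.51. The genes closest to FABP5 over the 24 arrays were SERPINH1 (Pearson 0.93), LHFPL6 (0.93) and GABBR2 (0.91), and the most opposed were NDN (-0.95) and GGACT (-0.87).

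CPT1A, the mitochondrial gatekeeper, was lower with doxycycline on every EGFP array but did not pass the test. In the EGFP line it was at 9.45, 9.43 and 9.26 with doxycycline, against 9.61, 9.51 and 9.62 without. These sets did not overlap, as was the case in that direction for 4.53% of all genes, and the log2 change was -0.20 ± 0.16 (SE) with a limma adjusted p of 0.975. Its changes in the 2-4, 4-1 and 6-16 lines were -0.03, -0.12 and 0.14, and the sets overlapped in each. In the 2-4 line CPT1A was at 9.52, 9.54 and 9.56 with doxycycline, against 9.38, 9.91 and 9.44 without. In the 4-1 line it was at 9.62, 9.53 and 9.37 with doxycycline, against 9.96, 9.43 and 9.49 without. In the 6-16 line it was at 9.46, 10.01 and 9.31 with doxycycline, against 9.43, 9.51 and 9.41 without. The 3 arrays at 9.91, 9.96 and 10.01 stood above all others, which ended at 9.62, and they were the 3 with the lowest TACC3 of all, 10.49 to 10.79. How many of all genes likewise set these 3 arrays apart was not counted. The other 3 probe sets of CPT1A correlated with the chosen one at 0.13 to 0.50 over the 24 arrays.

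PLIN2, the droplet coat, and ANGPTL4, the lipase inhibitor, hardly varied. PLIN2 spanned 5.59 to 6.00 and ANGPTL4 7.08 to 7.45, ranges wider than those of 29.9% and 17.7% of genes, where the median gene spanned 0.49. All PLIN2 levels lay below the array medians of 6.98 to 7.08 and were not set against background, so a narrow range need not mean a steady gene. In the 4-1 line PLIN2 was at 5.80, 5.85 and 6.00 with doxycycline, against 5.75, 5.62 and 5.62 without. These sets did not overlap, as was the case in that direction for 0.986% of all genes, and the change was 0.22 ± 0.09 (SE) with a limma adjusted p of 1.00. In the 2-4, 6-16 and EGFP lines PLIN2 changes were 0.02, 0.00 and 0.14 and the sets overlapped. For ANGPTL4 the differences were -0.03 in line 2-4, -0.01 in line 4-1, -0.10 in line 6-16 and -0.05 in the EGFP line (SE 0.08 each), with overlap in each. The 2 probe sets of PLIN2 correlated at 0.32 over the arrays and those of ANGPTL4 at -0.05, against 0.95 for the 2 of FABP4, so the probe sets of PLIN2 and of ANGPTL4 followed each other less closely.

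**Figure D2:**
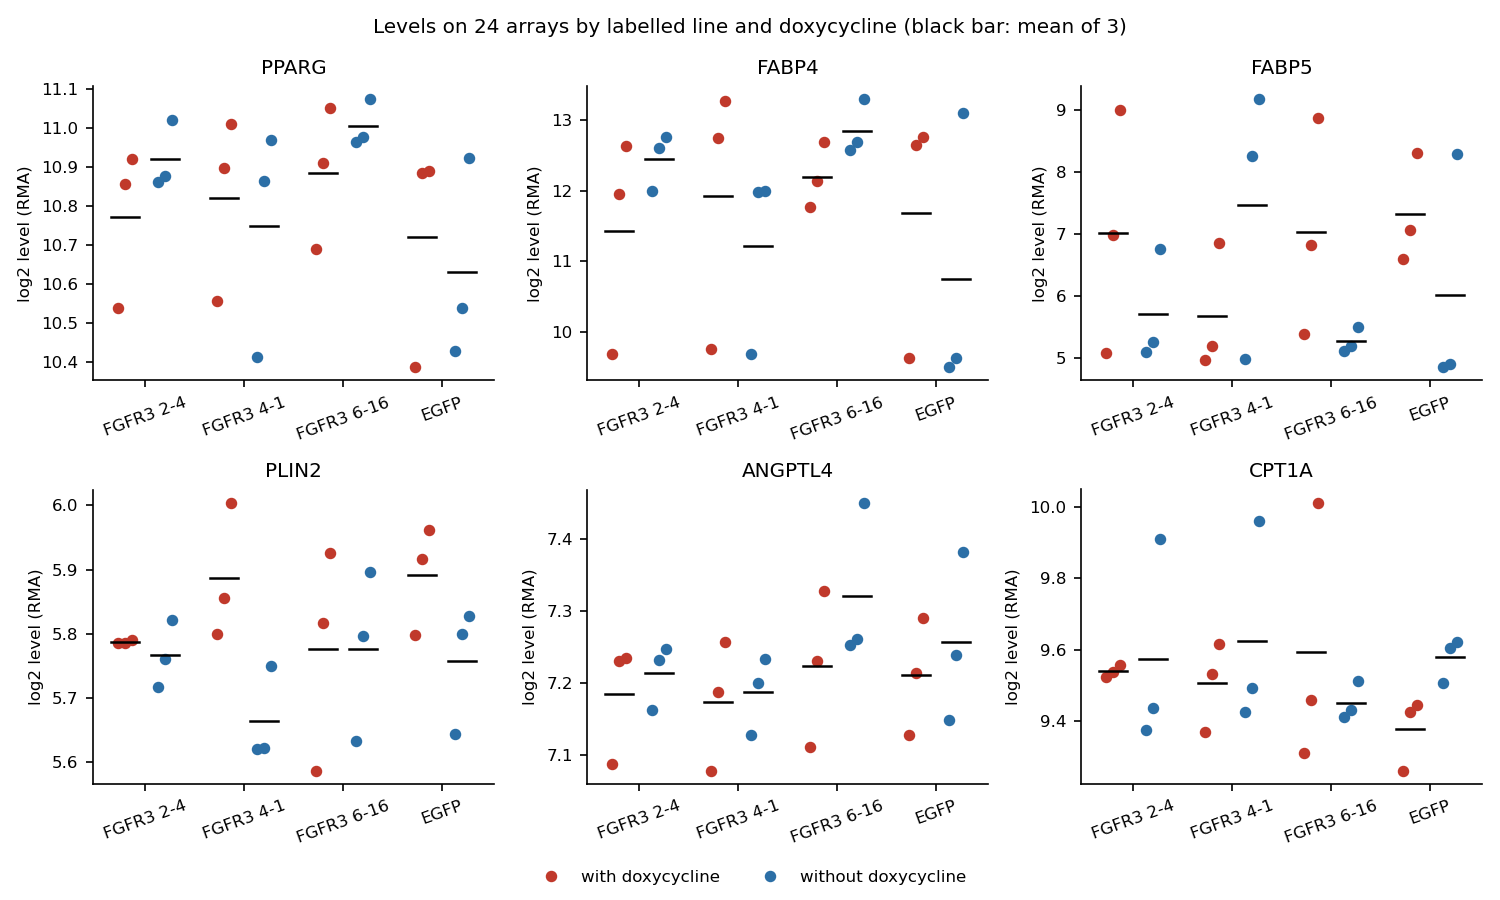
Log2 level (RMA) of the 6 genes by labelled line, with red points for the 3 arrays with doxycycline, blue points for the 3 without and a black bar at the mean. FABP4 and FABP5 spread widest within labelled groups, and only PLIN2 in the 4-1 line and CPT1A in the EGFP line show no overlap.

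Over all 6 genes and 4 lines, limma called 0 changes at an adjusted p under 0.05, and it called 0 of 19775 genes (0%) in each line. Unadjusted p values under 0.05 numbered 487 in line 2-4, 223 in line 4-1, 1539 in line 6-16 and 505 in the EGFP line, and PLIN2 in the 4-1 line (0.0184) was the only one of the 6 genes among them. With arrays weighted by quality, limma called 1291 genes in line 6-16, ANGPTL4 among them (-0.21, adjusted p 0.0495). With the replicate number as a block it called 1 gene in that line, none of the 6. Doxycycline arrays lay wholly above those without for 3.35% of all genes in line 2-4, 9.1% in line 6-16 and 6.08% in the EGFP line, and wholly below for 4.08% in line 2-4, 2.8% in line 4-1 and 5.17% in line 6-16, and none of the 6 genes was among these. The mean change of the FGFR3 lines minus that of the EGFP line was -0.16 ± 0.19 (SE) for PPARG, -1.27 ± 1.21 for FABP4, -0.89 ± 1.31 for FABP5, -0.05 ± 0.10 for PLIN2, 0.00 ± 0.09 for ANGPTL4 and 0.20 ± 0.18 for CPT1A, with a limma adjusted p of 1.00 each. With 1 array left out this difference ran from -0.32 to -0.05 for PPARG, from -2.45 to -0.64 for FABP4 (without replicates 2 and 3 of the EGFP arrays without doxycycline) and from -2.02 to -0.30 for FABP5 (without replicates 1 and 3 of the same arrays). With arrays weighted by quality it was -2.40 for FABP4, whose change in the EGFP line was then 2.39. Without doxycycline the FGFR3 lines minus the EGFP line gave 0.26 ± 0.14 for PPARG and 1.43 ± 0.85 for FABP4, with a limma adjusted p of 0.994 each and 0 genes called (0%). Unadjusted p values under 0.05 numbered 428 and 576 genes in these 2 comparisons. An F-test over the 8 labelled groups gave an adjusted p of 0.989 for each of the 6, and called 0 genes (0%), with 476 at an unadjusted p under 0.05. Labelled groups held 28.5%, 24.1%, 29.9%, 40.2%, 27.4% and 17.3% of the variance of PPARG, FABP4, FABP5, PLIN2, ANGPTL4 and CPT1A, where the median gene had 26.4%. The spread within labelled groups was 1.40 for FABP4 and 1.51 for FABP5 (SD), against 1.34 and 1.51 over all 24 arrays. The tests weigh a change against the spread within labelled groups, so a change that passed no test is not shown to be absent.

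**Figure D3:**
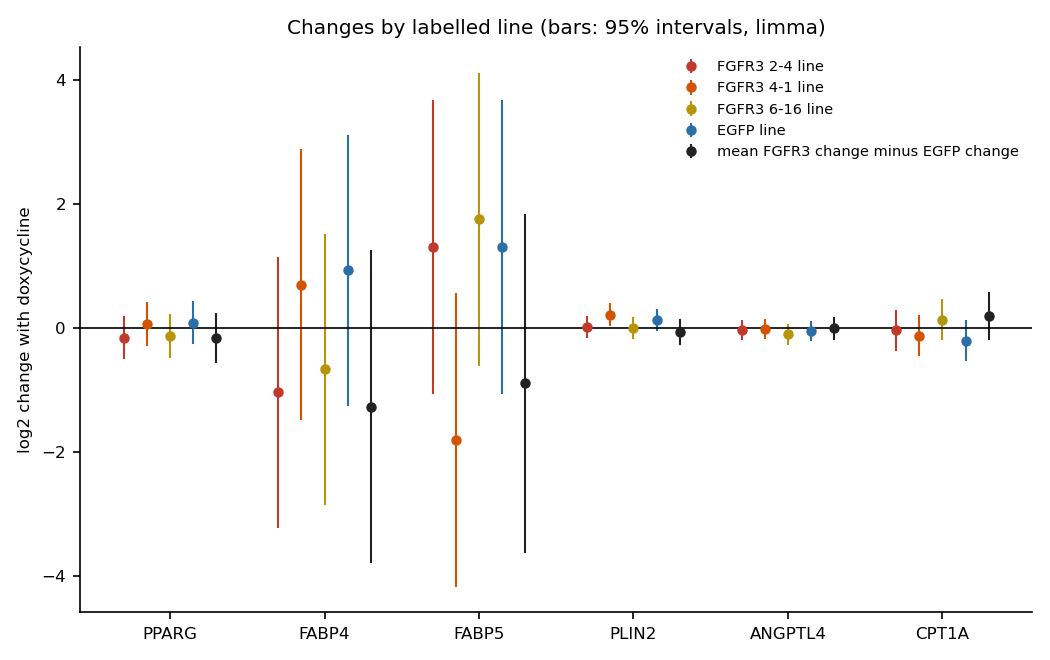
Log2 change with doxycycline of the 6 genes in the 3 FGFR3 lines and the EGFP line, and the mean FGFR3 line change minus the EGFP line change, with 95% intervals from limma as bars. Intervals of FABP4 and FABP5 are the widest and all include 0, and those of ANGPTL4 in the 4 lines reach no lower than -0.26. The interval of PLIN2 in the 4-1 line, 0.04 to 0.40, leaves out 0. Intervals are not adjusted for the number of genes.

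The same levels were then read on the 2 sides of the TACC3 threshold. On the 9 low TACC3 arrays FABP4 had a lowest, median and highest level of 9.50, 9.69 and 12.13, against 11.77, 12.69 and 13.30 on the other 15. PPARG had 10.39, 10.54 and 11.05, against 10.69, 10.90 and 11.07, and CPT1A 9.26, 9.62 and 10.01, against 9.31, 9.45 and 9.56. In both FABP4 and PPARG, 6 of the 9 arrays lay below all 15 and the other 3 lay among them, so the sides overlapped. FABP5 had 4.85, 5.19 and 8.31, against 4.91, 6.76 and 9.17, PLIN2 5.59, 5.79 and 5.96, against 5.62, 5.80 and 6.00, and ANGPTL4 7.08, 7.23 and 7.25, against 7.09, 7.23 and 7.45. None of the 6 genes was wholly lower or wholly higher on the 9 arrays, where 3.09% and 2.9% of all genes were. The excess of 3' over 5' GAPDH signal, a measure of RNA quality, was 0.28 to 0.42 on the 9 arrays, against 0.20 to 0.29 on the 15, and that of ACTB 0.79 to 1.17, against 0.70 to 0.97. Among the epithelial markers KRT18 was wholly lower and CDH1 wholly higher on the 9 arrays. The part of RNA quality and of these markers in the levels of the 6 genes was not tested.

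**Figure D4:**
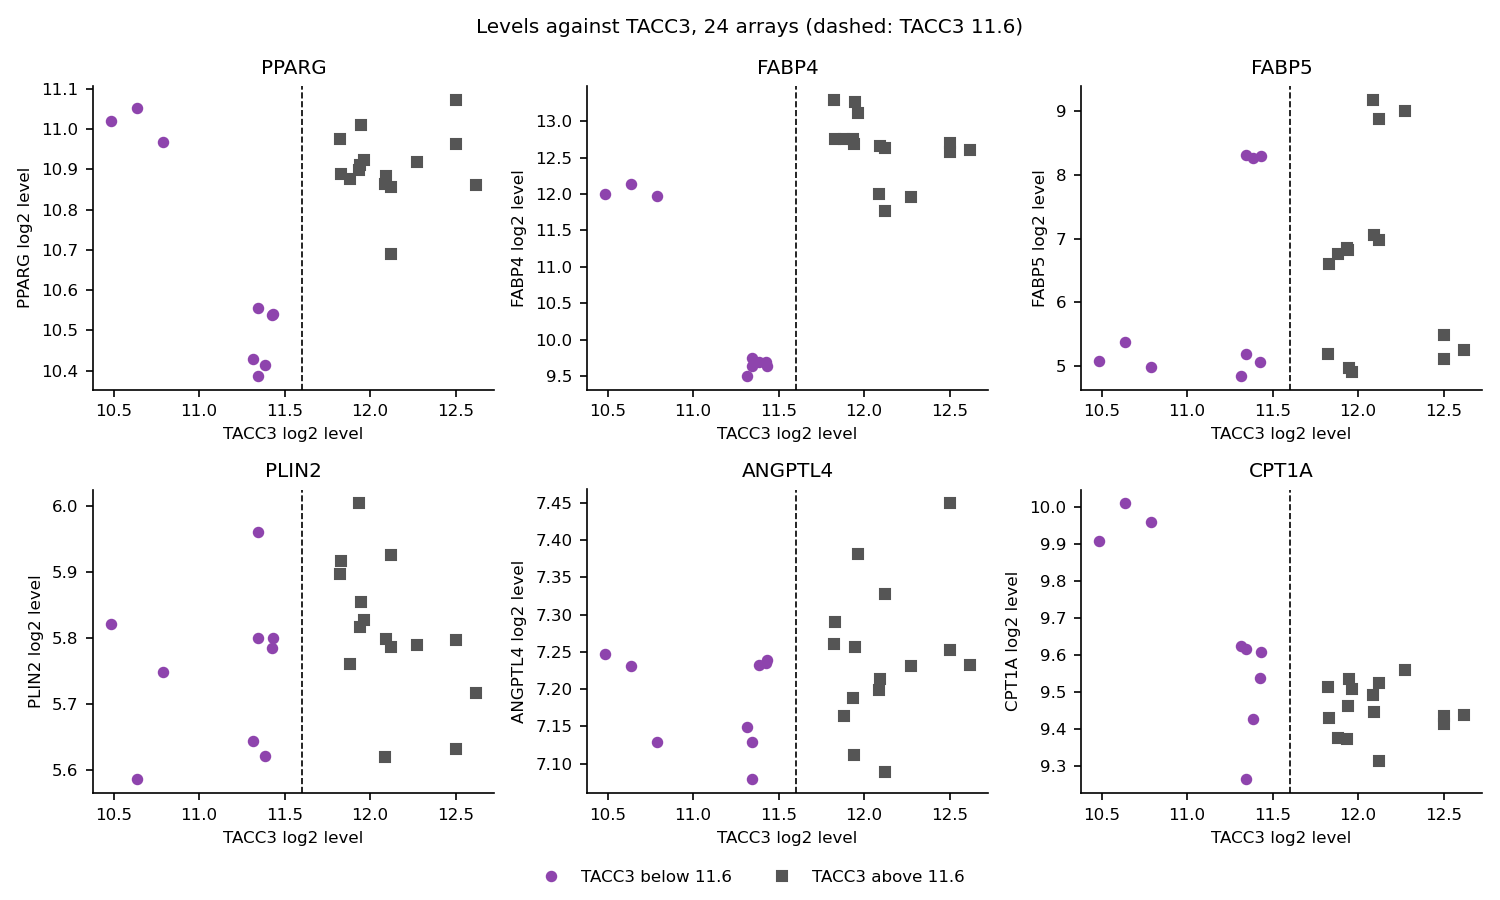
Log2 level of the 6 genes against TACC3 on 24 arrays, with a dashed line in the gap of TACC3, purple circles below and grey squares above. FABP4 and PPARG are low on 6 of the 9 arrays below the line, and CPT1A is highest on the 3 with the lowest TACC3.

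The 3 exceptions were the arrays below the threshold that had ARMCX3, an X-linked armadillo-repeat gene, at 4.25 to 4.79. They kept FABP4 at 11.98 to 12.13 and PPARG at 10.97 to 11.05. Another 3 arrays had ARMCX3 that low with TACC3 above the threshold, and FABP4 there was at 13.11 to 13.30, all above the first 3. Among the 6 arrays with GAS1 above 8, FABP4 was at 9.63 to 9.69 on the 3 with low TACC3, against 11.77 to 12.00 on the 3 with high TACC3. Among the 6 arrays with the lowest levels on the brighter FGFR3 probe set, it was at 9.50 to 9.75, against 12.57 to 12.70. The 6 arrays with none of these marks all had high TACC3, and FABP4 at 12.63 to 12.76.

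Of the 6 genes, FABP4 was lower on the low TACC3 arrays in all 3 of these sets, and its split on these arrays was known beforehand. The share of all genes lower in all 3 sets was not counted. It includes the 3.09% of all genes that were wholly lower on the 9 low TACC3 arrays. PPARG was lower in the GAS1 set (10.39 to 10.54, against 10.69 to 10.92) and the FGFR3 set (10.43 to 10.56, against 10.86 to 11.07). It overlapped in the ARMCX3 set (10.97 to 11.05, against 10.92 to 11.01). CPT1A was higher in the ARMCX3 set (9.91 to 10.01, against 9.51 to 9.53) and the FGFR3 set (9.54 to 9.62, against 9.41 to 9.44) and overlapped in the GAS1 set. FABP5 was lower in the GAS1 set (8.26 to 8.31, against 8.87 to 9.17) and overlapped in the others. PLIN2 (5.59 to 5.82, against 5.83 to 5.90) and ANGPTL4 (7.13 to 7.25, against 7.26 to 7.38) were lower in the ARMCX3 set and overlapped in the others. With 3 arrays against 3, 14.2%, 19.2% and 20.9% of all genes were wholly lower on the low TACC3 arrays of the ARMCX3, GAS1 and FGFR3 sets, and 21.8%, 14.2% and 24.1% wholly higher, so none of these orders is particular to the 6 genes. The cut points on ARMCX3, GAS1 and FGFR3 were chosen after the values were seen.

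**Figure D5:**
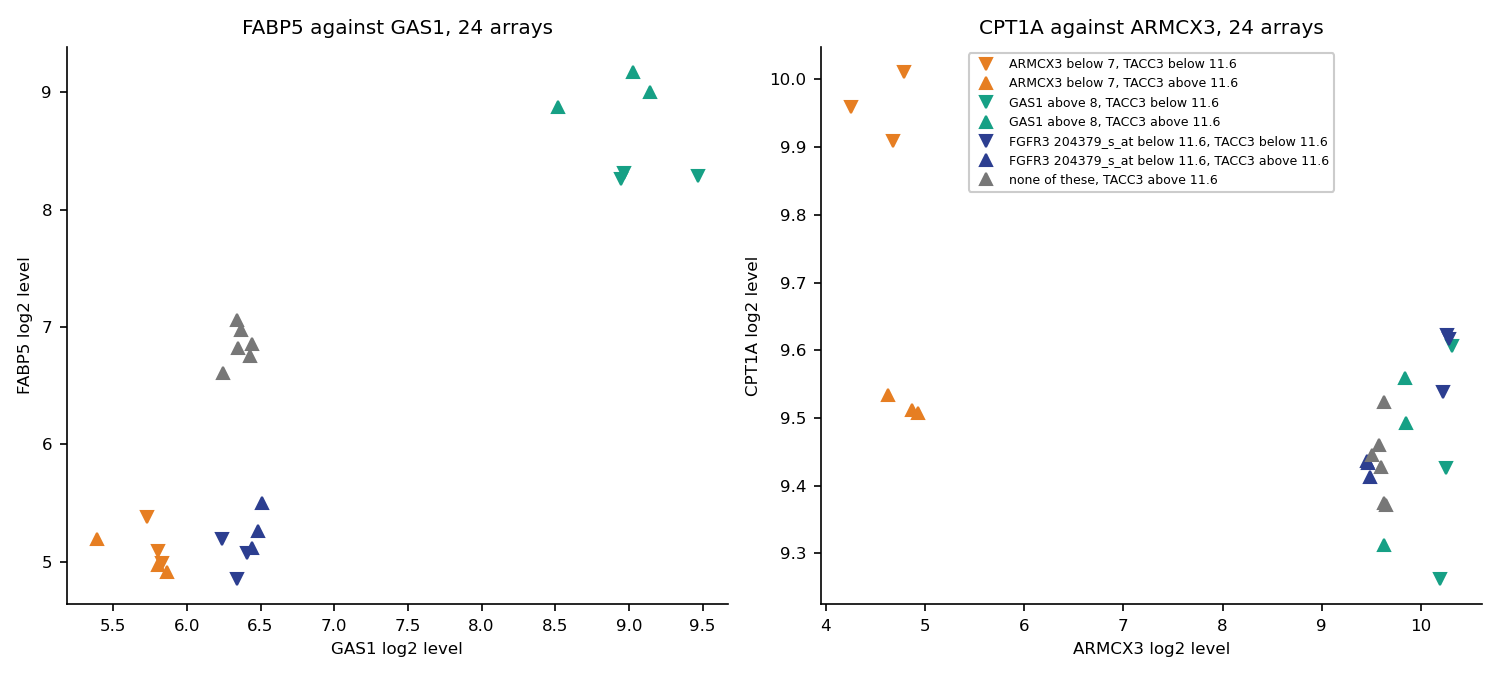
Left, FABP5 log2 level against GAS1. Right, CPT1A against ARMCX3, 1 symbol per array, coloured as in the plot of FABP4 against PPARG. The 6 arrays with GAS1 above 8 have FABP5 at 8.26 or higher, and the 3 arrays with low ARMCX3 and low TACC3 have CPT1A at 9.91 or higher. The share of all genes that set the same arrays apart was not counted.

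Genes with the pattern most like each of the 6 were ranked by Pearson correlation over the 24 arrays. For PPARG these were YIF1A (0.98), CYC1 (0.97) and MPC1 (0.96), and the most opposed were GPNMB (-0.91) and FUT9 (-0.89). For FABP4 they were SLC2A6 (0.97), KLHL18 (0.97) and DDX21 (0.97), with COL6A1 (-0.96) and MOB3B (-0.96) most opposed. For CPT1A they were MLYCD (0.94), ACAA1 (0.93) and ELMO2 (0.93), with UBE2C (-0.90) and PKMYT1 (-0.90) most opposed. Spearman correlations, in the order named, were 0.93, 0.87, 0.88, -0.84 and -0.67 for PPARG. They were 0.81, 0.88, 0.83, -0.94 and -0.90 for FABP4 and 0.88, 0.75, 0.84, -0.62 and -0.77 for CPT1A. For these genes no correlation was computed within the arrays on either side of the FABP4 threshold. By Pearson correlation FABP4 had 177 genes above 0.9 and 49 below -0.9, PPARG 134 and 1, CPT1A 17 and 0, and FABP5 6 and 1. PLIN2 and ANGPTL4 had 0. Their closest were LINC02150 (0.71), CD163 (0.68) and MIR4755 (0.67) for PLIN2 and GPR32 (0.74), KLK2 (0.71) and FHL1P1 (0.71) for ANGPTL4. Most opposed to PLIN2 were ZNF37A (-0.69) and MYOG (-0.66), and to ANGPTL4 GKAP1 (-0.78) and COSMOC (-0.78).

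The wider PPAR pathway was read from 5 lists with 92 genes, of which 83 were measured. None of the 83 passed limma's test in any line, in the FGFR3 minus EGFP difference or in the F-test (0% of all genes in each). In that difference the PPAR and RXR receptors with their coregulators lay above 0 in 11 of 12 (median 0.13), led by PPARA at 0.27 and the acetyltransferase CREBBP at 0.26. In the EGFP line alone 11 of these 12 lay below 0 (median -0.13), and the medians were 0.03, 0.00 and 0.07 in lines 2-4, 4-1 and 6-16. The PPARG-linked urothelial genes lay above 0 in 11 of 15 (median 0.28), led by the uroplakin UPK1A at 0.88 and the cytochrome P450 CYP4B1 at 0.84. By line, 11 of the 15 lay below 0 in line 2-4 (median -0.08), 13 in line 4-1 (median -0.15), 3 in line 6-16 (median 0.23) and 13 in the EGFP line (median -0.28). Of all 19775 genes, 10248, 10625, 8100 and 8220 lay below 0 in these lines in the same order. UPK1A itself was at -0.08, -0.39, 0.74 and -0.80 in that order. The positive differences of both lists thus include negative values in the EGFP line, which is subtracted. Genes of fatty acid uptake, binding and activation lay above 0 in 8 of 19 (median -0.07), with the lipase LIPG at -0.67 and the acyl-CoA synthetase ACSL4 at -0.54. Droplet and lipolysis genes lay above 0 in 5 of 17 (median -0.05), with the lipases LIPE at -0.30 and PNPLA3 at -0.28, and oxidation and ketogenesis genes in 9 of 20 (median -0.02), with PDK4, which restrains pyruvate oxidation, at 0.78 and the isomerase ECI2 at -0.18. Over all genes 8661 of 19775 lay above 0, with a median of -0.02.

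On the TACC3 sides, 11 of the 83 list genes (13.3%) were wholly higher on the 9 arrays below the threshold, where 2.9% of all genes were. They were the receptor PPARA (9.81 to 9.99, against 9.12 to 9.54) and its coactivators NCOA1, NCOA2 and CREBBP, the urothelial genes GATA3, UPK1A, SNX31 and TBX3, the fatty acid transporter SLC27A1, the oxidation enzyme HADHB and PDK4. UPK1A, a plaque protein of the bladder lining, was at 12.08 to 12.97 on the 9 arrays, against 10.01 to 11.36 on the 15. PDK4 was at 5.89 to 6.92, against 4.59 to 5.50. LIPG (5.27 to 6.01, against 6.25 to 7.23) and PNPLA3 (6.95 to 7.05, against 7.25 to 7.59) were wholly lower, which is 2.41% of the list genes where 3.09% of all genes were. On the 6 arrays with low FABP4, 4 of the 83 (4.82%) were wholly lower, where 3.45% of all genes were: SLC27A4, another fatty acid transporter, DBI, the acyl-CoA-binding protein, ABHD5, the lipolysis coactivator, and ETFA, which passes electrons from fatty acid oxidation to the respiratory chain. SLC27A4 was at 7.96 to 8.29 on the 6 arrays, against 8.44 to 9.10 on the 18. None of the 83 was wholly higher on the 6, where 1.52% of all genes were. The genes named in this paragraph beyond UPK1A, PDK4, PPARA, CREBBP, LIPG and PNPLA3 were chosen after their values were seen.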

How the data were processed

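The 24 arrays were Affymetrix 3' arrays with 54675 probe sets. The deposited log2 values were made by the authors with RMA in the affy package, per the submitters' processing notes. RMA corrects background, quantile-normalizes and summarises probe sets, which removes a change shared by most genes. Array medians were 6.98 to 7.08, no 2 arrays were identical, and the number of arrays limits the precision. GEO's platform annotation gave 41097 probe sets 1 gene symbol, 1801 several and 11777 none. Only the first were used, 1 per gene by highest mean. limma 3.58.1 in R 4.3.3 fitted 8 group coefficients to all genes, with 16 residual and 3.13 prior degrees of freedom and Benjamini-Hochberg adjustment over all 19775 genes. The fit was also run on simulated data with independent noise on each array. Such data lack the sets of similar arrays seen here, so that run cannot show how the fit behaves on them. Overlap, medians and correlations were computed in Python 3.11.15. The genes, lists and thresholds were chosen with earlier results of these data known. Genes named are the 6 members, FGFR3, TACC3, ARMCX3, GAS1, the 3 most and 2 least similar genes of each member, the 2 largest differences of each list without a call, and the markers of other cell types. Further list genes that did not overlap between array sets are named outside that rule and were chosen after their values were seen. Same-numbered arrays with and without doxycycline deviated together (correlation over 0.1) in all 3 pairs of lines 2-4 and 6-16, but not in all pairs of line 4-1 and the EGFP line. The replicate block fitted effects of the replicate number shared by all lines, and is not a pairing within a line. Alternatives were a replicate block, array weights, a trended robust prior, a filter at a mean of 6, median centring, all probe sets, fits on fewer arrays, leaving out each array, other thresholds and rank correlation.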

Additional observations from a re-analysis of the deposited data

How the results depend on the processing

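No call was made in the 7 comparisons, and none was made with a trended robust prior, a filter at a mean of 6, median centring, every probe set on its own or 1 array left out (0 to 0 genes in each of the 7). Array weights called 1291 genes in line 6-16 and 1 gene among the 8 groups. For line 6-16 the replicate block gave 1 called gene, and a fit restricted to its own arrays gave 1. The cause was not tested. The replicate block called 0 genes in the other 6 comparisons. Over all lines, 9 of 12 same-numbered pairs had deviations correlated above 0.1 (-0.53 to 0.61). The block changed no other call. Array weights also carried ANGPTL4 in the 6-16 line past the threshold (-0.21, limma adjusted p 0.0495).

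Signs turned only in values that passed no test in the main fit. ANGPTL4 in the 6-16 line, which passed with array weights, was among them. With array weights the change was 0.049 and 0.012 for ANGPTL4 in the EGFP and 4-1 lines and 0.077 for CPT1A in the 2-4 line. With median centring it was -0.027 for PLIN2 in the 6-16 line, and 0.0023 for the ANGPTL4 line difference. The next probe set gave 0.091 for the PLIN2 line difference, 0.071, 0.040 and 0.034 for ANGPTL4 in the EGFP, 4-1 and 6-16 lines, and 0.039, 0.062 and 0.072 for CPT1A in the EGFP, 2-4 and 4-1 lines. With 1 array left out, PPARG ran from -0.011 to 0.26 in the EGFP line and -0.095 to 0.21 in the 4-1 line, and FABP4 from -0.062 to 1.79 in the 4-1 line. PLIN2 ran from -0.0036 to 0.048 in the 2-4 line, -0.074 to 0.096 in the 6-16 line and -0.10 to 0.0030 in the line difference. ANGPTL4 ran from -0.099 to 0.017, -0.055 to 0.019, -0.054 to 0.035 and -0.064 to 0.052 in the EGFP, 2-4 and 4-1 lines and the line difference. CPT1A ran from -0.13 to 0.13, -0.22 to 0.048 and -0.066 to 0.28 in the 2-4, 4-1 and 6-16 lines. Sign and side of the threshold held for 97 values under the other settings and turned for 12, and with 1 array left out they held for 260 and turned for 28. The 97 include the values with the replicate block. Every group has the same replicate numbers, so the block cannot move a change and those signs were bound to hold.

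At a lower TACC3 threshold 3 arrays lay below, and 1 of the 6 genes, CPT1A, did not overlap. At a higher one there were 12 arrays below and 0 such genes. The share of all genes without overlap was not counted at these thresholds, so CPT1A is not thereby set apart from other genes. The 6 low FABP4 arrays were 6 at thresholds of 10 and 11. Of the 3 genes most like each member, the number within the first 10 by Spearman correlation was 1 for PPARG, FABP4, PLIN2 and CPT1A, 2 for FABP5 and 0 for ANGPTL4. With 1 array left out it was 3 for PPARG, FABP4 and FABP5, 1 to 3 for PLIN2 and CPT1A and 0 to 3 for ANGPTL4. The background correction could not be redone from summarised values and was not run. The values hold no detection calls, so low levels such as those of PLIN2 were not set against background.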
